A study of Mus musculus with 6 samples.

Results

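The cytochrome P450 genes were described here in the frontal cortex of mice given SAHA (suberoylanilide hydroxamic acid, vorinostat), an inhibitor of histone deacetylases. The members are all genes whose symbol in the platform annotation begins with Cyp and a digit, which gave 87 of the 19938 genes measured. Each of the 87 was represented by 1 probe set. Wild-type 129S6/SvEv mice aged 8 to 12 weeks were injected for 21 days with SAHA at 20 mg per kg or with vehicle, which the sample titles call saline, and killed 1 day after the last injection. 3 arrays were made from SAHA-treated and 3 from saline-treated mice. The labels name no promoter, transgene or clone, and they do not say that each array came from a different animal, so a p-value here speaks of the scatter among 6 samples and that scatter may be technical.

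Cytochromes P450 are heme enzymes that add oxygen to lipids, hormones, vitamins and drugs. Those of the endoplasmic reticulum take their electrons from a common reductase, those of mitochondria from ferredoxin. The liver holds most of the forms that oxidise drugs and bile acid precursors. In the brain a neuronal form, Cyp46a1, turns cholesterol into 24-hydroxycholesterol, the route by which cholesterol leaves the tissue, and others act on fatty acids, retinoic acid and neurosteroids. A list of 21 genes known from textbook knowledge to be expressed in brain (called the brain list here) was set apart from the rest. 20 of its genes were measured on their own, and Cyp4v3 was not analysed here because its probe set also pairs with Klkb1. The other 67 members are mostly forms of liver, kidney, steroid-making tissue or epithelia.

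The windows around the starts of these genes differed in letters between the lists. Promoters of RefSeq (GRCm38.p6, 250 bases before to 50 after the start) were found for 64 of the 87 members. The GC box GGGCGG, read on both strands, lay in 11 of 15 windows of the brain list (73.3%) and in 6 of 49 windows of the other members (12.2%), against 35.9% of all 27025 promoters. The motif TATAA, read on both strands, lay in 1 of 15 windows of the brain list (6.67%) and in 30 of 49 of the others (61.2%), against 25.5% of all promoters. The median number of CpG pairs per window was 9 in the brain list, 2 in the other members and 7 in all promoters. A match is a description of letters and not a site. The windows of 3 genes that return in the results are shown as examples, with both motifs in capitals on either strand: Cyp46a1 (chr12:108334066-108334365, plus strand), Cyp26b1 (chr6:84593761-84594060, minus strand) and Cyp2d40 (chr15:82764073-82764372, minus strand).
Cyp46a1: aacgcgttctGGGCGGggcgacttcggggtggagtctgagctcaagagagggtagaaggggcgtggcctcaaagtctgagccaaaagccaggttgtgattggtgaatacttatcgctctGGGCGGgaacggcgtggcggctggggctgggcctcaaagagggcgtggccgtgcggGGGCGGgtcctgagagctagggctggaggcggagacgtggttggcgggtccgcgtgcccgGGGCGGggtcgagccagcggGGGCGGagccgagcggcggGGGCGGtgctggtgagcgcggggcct
Cyp26b1: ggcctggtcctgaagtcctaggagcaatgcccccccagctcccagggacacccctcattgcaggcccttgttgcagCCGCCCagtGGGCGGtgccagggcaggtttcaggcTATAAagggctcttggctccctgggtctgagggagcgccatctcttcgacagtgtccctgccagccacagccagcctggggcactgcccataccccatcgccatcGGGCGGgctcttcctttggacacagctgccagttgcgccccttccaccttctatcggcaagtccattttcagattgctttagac
Cyp2d40: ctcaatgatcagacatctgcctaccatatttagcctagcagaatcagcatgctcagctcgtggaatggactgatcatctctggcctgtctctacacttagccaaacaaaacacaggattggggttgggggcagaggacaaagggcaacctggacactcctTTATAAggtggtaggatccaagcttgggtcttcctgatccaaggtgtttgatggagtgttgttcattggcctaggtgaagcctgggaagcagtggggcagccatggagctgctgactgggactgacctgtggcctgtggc
The Cyp46a1 window held 6 GC boxes, 31 CpG pairs and no TATAA. The Cyp26b1 window held 3 GC boxes and 1 TATAA. The Cyp2d40 window held no GC box and 1 CpG pair, and its TATAA overlaps its own reverse complement, so that 1 stretch counts on both strands.

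**Figure D1:**
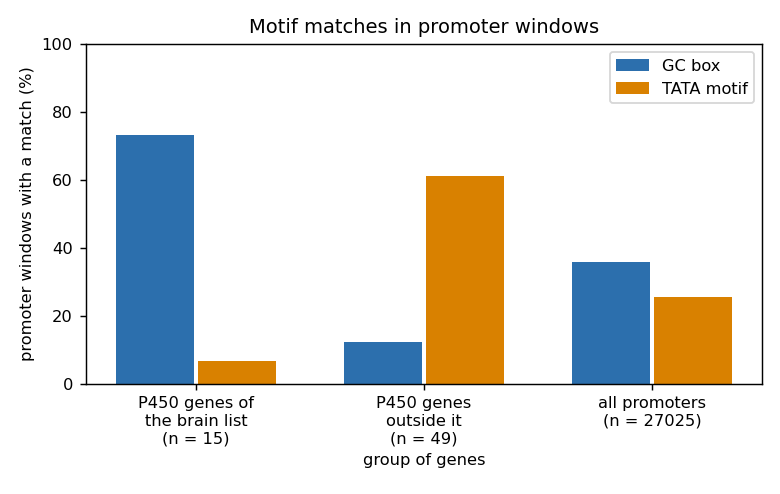
Share of RefSeq promoter windows (percent, from 0) that hold at least 1 GC box (blue) or TATA motif (orange), in P450 genes of the brain list, P450 genes outside it and all promoters. The GC box was in 73.3% of windows of the brain list and 12.2% of those outside it, the TATA motif in 6.67% and 61.2%.

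The values are log2 signals of RMA. Signal also depends on the probes of a probe set, so the order of signals between genes is not an order of transcript amounts. Medians over all genes lay between 6.94 and 6.98 in the SAHA arrays and between 6.92 and 6.93 in the saline arrays. 2 arrays stood apart in sex-linked RNAs. Xist, made from the inactive X chromosome, was at 10.9 in saline replicate 1 and at most 4.88 in the other 5, and Y-linked Eif2s3y was at 7.80 in SAHA replicate 3 and at least 9.18 in the others. Values without both arrays are therefore given for the genes the results turn on. Excitatory cortical neuron markers were present, with a mean signal between 10.1 and 10.2 in every array for 6 genes such as Slc17a7. Liver markers were dim: 12 of 13 lay below 6.94, the median signal of all genes, and albumin (Alb) was between 4.98 and 5.57 in SAHA and between 4.99 and 5.29 in saline.

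The lists separated by signal as well, which is a description only, since they were chosen with earlier results of these data known. 9 of 20 brain list members lay at or above the median signal of all genes, with a median over the list of 6.94, while 1 of 67 other members did. The brightest probe sets of the family were those of Cyp46a1, Cyp51, Cyp2d22, Cyp2j6 and Cyp2j9, all of the brain list, with mean signals between 7.70 and 9.81. Among the other members the brightest was Cyp2d40 at 7.31, and Cyp3a11, a main drug-oxidising form of mouse liver, was at 2.90. 30 members lay in the lowest decile of signal, 29 of them outside the brain list. No detection calls were used, so it is not said here which of these genes are transcribed.

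The comparison of SAHA with saline asks which P450 transcripts of the cortex differ after repeated deacetylase inhibition. limma with Benjamini-Hochberg adjustment over all 19938 genes called 0 of 87 members at an adjusted p under 0.05, and 0 genes in all (0.0%). At an unadjusted p under 0.05 lay 17 members (19.5%), 10 higher and 7 lower in SAHA, where 17.4% of all genes lay, 11.9% higher and 5.56% lower. The 3 SAHA values did not overlap the 3 saline values for 18 members (20.7%), where this held for 23.9% of all genes. Of these members 11 were higher in SAHA and 7 lower, against 13.6% and 10.4% of all genes. Both shares of members are near those of all genes. Of the members, 55 were higher and 32 lower in SAHA, with a median difference of 0.050 log2 against 0.011 over all genes. This split moved with the scaling of the arrays: 44 were higher and 43 lower after median centring, quantile normalization gave 46 and 41, and cyclic loess normalization gave 40 and 47. Members at an unadjusted p under 0.05 were then 6 higher and 8 lower, 7 and 9, and 5 and 9, in the same order of scalings. Of all genes 17.8%, 13.7% and 13.3% lay there, with 1434 higher and 2113 lower, 1606 and 1129, and 1360 and 1287. The median difference over all genes was -0.035, 0.0098 and 0.0018 under these scalings.

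The direction followed the signal in the table as a whole, and the lists lie at different signals. Among genes below the median signal 72.3% were higher in SAHA, with a median difference of 0.089, and in the brighter 9969 genes, those at or above it, 33.6%, with a median of -0.039. Among the dimmer 9969 genes 22.4% lay at an unadjusted p under 0.05, 19.6% higher and 2.84% lower, and the 77 members there had 14 (18.2%), 9 higher and 5 lower. Groups were separate for 23.4% of these dimmer genes, 20.0% higher and 3.33% lower, and for 15 of the 77 members, 9 higher and 6 lower. Among the brighter 9969 genes 12.4% lay at an unadjusted p under 0.05, 4.11% higher and 8.28% lower, and the 10 members there had 3, 1 higher and 2 lower. Groups were separate for 24.5% of the brighter genes, 7.13% higher and 17.4% lower, and for 3 of the 10 members, 2 higher and 1 lower. The 67 members outside the brain list had a median difference of 0.088, with 48 higher and 19 lower. Set against the median of genes in the same signal decile, 32 of these 67 lay above it and 35 below. The 20 brain list members had a median difference of -0.046, with 7 higher and 13 lower. Of these 20, 6 lay above the median of their signal decile and 14 below. The list medians relative to the saline mean were 0.011, -0.063 and -0.10 in SAHA replicates 1 to 3, against 0.013, -0.0095 and 0.014 in saline replicates 1 to 3, so SAHA replicate 1 lay within the saline values for the brain list. For the other members they were 0.12, 0.035 and 0.077 in SAHA, against -0.012, -0.035 and 0.030 in saline, and here the groups did not overlap. After cyclic loess normalization the medians were -0.071 for the brain list and 0.010 for the other members.

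**Figure D2:**
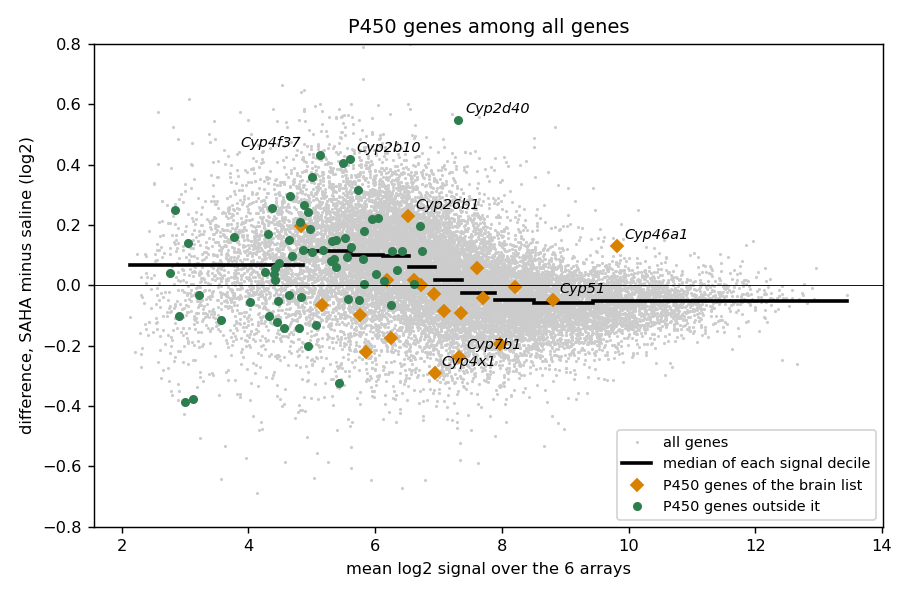
Difference between SAHA and saline (log2) against the mean log2 signal of the 6 arrays, for all genes (grey), brain list P450 genes (orange diamonds) and other P450 genes (green dots); black bars are medians of signal deciles. The vertical axis ends at 0.8 in either direction, beyond which 1 gene lies. Members outside the brain list crowd to the left, where the black bars are above 0, and Cyp2d40 and Cyp46a1 lie above the bars of their own deciles.

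Sterol enzymes included the brightest members. Cyp46a1, the cholesterol 24-hydroxylase of neurons, had log2 signals of 9.88, 9.81 and 9.95 in SAHA, against 9.70, 9.79 and 9.76 in saline. All 3 SAHA values were higher than all 3 saline values, a pattern held by 2.41% of genes in the same signal decile, of which 17.4% were higher in SAHA at all. The difference was 0.13 (SE 0.064, 95% interval -0.016 to 0.28), at an unadjusted p of 0.0737 and an adjusted p of 0.328 in limma. Quantile and cyclic loess normalization each gave 0.19. The difference was 0.085 with overlapping groups after median centring, and 0.069 without saline replicate 1 and SAHA replicate 3. Of 6 excitatory cortical neuron markers, 3 were higher and 3 lower in SAHA. Slc17a7, Neurod2 and Nrgn were higher without overlap, at 0.11, 0.10 and 0.060, and Neurod6 was lower without overlap, at -0.23. Of the brighter 9969 genes, which hold all 6, 7.13% were higher without overlap and 17.4% lower. The part of these cells in the Cyp46a1 difference was not tested. Cyp7b1, an oxysterol 7-alpha-hydroxylase that also acts on neurosteroids, was at 7.11, 7.37 and 7.12 in SAHA, against 7.50, 7.34 and 7.46 in saline. SAHA replicate 2 lay within the saline values, and the difference was -0.24 (SE 0.088, unadjusted p = 0.0279, adjusted p = 0.237 in limma), or -0.16 without both arrays that stood apart. Cyp39a1, which hydroxylates 24-hydroxycholesterol, was at 5.71, 5.68 and 5.75 in SAHA, against 5.79, 5.88 and 5.77 in saline. These groups did not overlap, with a difference of -0.099 (SE 0.061, adjusted p = 0.424 in limma). It was -0.17 with quantile scaling and -0.19 with cyclic loess, at unadjusted p of 0.0213 and 0.0122 in limma, and -0.062 without saline replicate 2, without overlap in each. In the signal decile of Cyp39a1, 2.41% of genes were lower without overlap.

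The other sterol enzymes had overlapping groups. Cyp51, the lanosterol demethylase of cholesterol synthesis, averaged 8.78 ± 0.044 in SAHA and 8.82 ± 0.16 in saline (SD, n = 3 each). Cyp27a1, the mitochondrial sterol 27-hydroxylase, averaged 6.62 ± 0.20 in SAHA and 6.61 ± 0.069 in saline. The bile acid enzymes of liver stood outside the brain list: Cyp7a1, rate-limiting in that pathway, differed by 0.037 (SE 0.096), and Cyp8b1, the sterol 12-alpha-hydroxylase, by 0.32 (SE 0.16) with overlapping groups. Both were named after their values were seen. Among 14 measured genes of cholesterol synthesis and oxysterol handling, 0 passed the adjusted test in either direction. At an unadjusted p under 0.05 in limma lay 0 of them, against 12.4% of the brighter 9969 genes, which hold 12 of the 14. The 3 of smallest p were Hsd3b7, a bile acid enzyme, at 0.21 (SE 0.096), Srebf2, the transcription factor of sterol synthesis genes, at 0.12 (SE 0.060), and Abcg4, a sterol exporter of brain cells, at 0.10 (SE 0.058).

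Among the fatty acid and eicosanoid oxidising forms of the brain list, Cyp4x1 had the greatest difference. Cyp4x1, a member of the fatty acid hydroxylase family with high expression in brain, was at 6.78, 6.80 and 6.81 in SAHA, against 7.04, 7.19 and 7.01 in saline. All SAHA values were lower, with an SD of 0.015 in SAHA and 0.096 in saline. The difference was -0.29 (SE 0.067, 95% interval -0.44 to -0.14), a level 1.22-fold higher in saline. limma gave an unadjusted p of 0.00253 and an adjusted p of 0.129. It lay between -0.34 and -0.23 over all 13 alternatives that gave a value, with no overlap of the groups in any of them and -0.32 without both arrays that stood apart. In the same signal decile 4.97% of genes were lower without overlap.

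The Cyp2j forms, epoxygenases of arachidonic acid, lie in 1 cluster on chromosome 4. Cyp2j6 was at 7.91, 7.90 and 7.83 in SAHA, against 8.20, 7.98 and 8.04 in saline, a difference of -0.20 (SE 0.074, adjusted p = 0.242 in limma). Cyp2j12 was at 5.81, 5.70 and 5.71 in SAHA, against 6.08, 5.86 and 5.94 in saline, a difference of -0.22 (SE 0.075, adjusted p = 0.212 in limma). Neither pair of groups overlapped, and without both arrays that stood apart the differences were -0.10 and -0.15. In the signal decile of Cyp2j6, 18.9% of genes were lower without overlap, and the median difference was -0.050. In that of Cyp2j12 the share was 2.41% and the median 0.10. Cyp2j9, known for its expression in brain, differed by -0.043 (SE 0.077) with overlapping groups. Cyp2j5, Cyp2j11 and Cyp2j13, outside the brain list and named after their values were seen, differed by 0.057, 0.043 and 0.073, also with overlap.

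Members of subfamily 4f hydroxylate leukotrienes and other fatty acids. Of the 9 measured, 6 were higher and 3 lower on the deposited values, 5 were higher under each other scaling, and 1 had groups that did not overlap. 7 of the 9 lie below the median signal, where 72.3% of all genes were higher on the deposited values, 20.0% without overlap. Within the brain list, Cyp4f13 differed by -0.084 (SE 0.060), Cyp4f14 by -0.18 (SE 0.088), Cyp4f15 by 0.059 (SE 0.10) and Cyp4f18 by 0.20 (SE 0.10), all with overlapping groups on the deposited values. Under the other 3 scalings Cyp4f14 was lower without overlap, between -0.26 and -0.22 at an unadjusted p in limma between 0.0241 and 0.0397, and without SAHA replicate 3 it was -0.084. Cyp4f13 was also lower without overlap under those scalings, between -0.13 and -0.11. Cyp4f18 was 0.094 without SAHA replicate 1 and 0.12 after cyclic loess, and Cyp4f15 lay between 0.0058 and 0.14 with 1 array left out in turn. Outside it, Cyp4f37 was at 5.23, 5.33 and 5.46 in SAHA, against 4.99, 4.80 and 4.93 in saline. All SAHA values were higher, and the difference was 0.43 (SE 0.082, unadjusted p = 0.000773, adjusted p = 0.120 in limma). It kept its direction without overlap in all 13 alternatives that gave a value, between 0.35 and 0.49. In the same signal decile 20.8% of genes were higher without overlap, and the median difference was 0.11. Cyp4f16 differed by 0.12 (SE 0.080) with overlap, and by 0.059 after cyclic loess. Cyp2u1, a fatty acid hydroxylase of brain and thymus, differed by -0.030 (SE 0.069), and Cyp20a1, whose substrate is not settled, by -0.091 (SE 0.075). Neither separated the groups, though Cyp20a1 did without SAHA replicate 1, at -0.14, and without saline replicate 1, at -0.15.

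**Figure D3:**
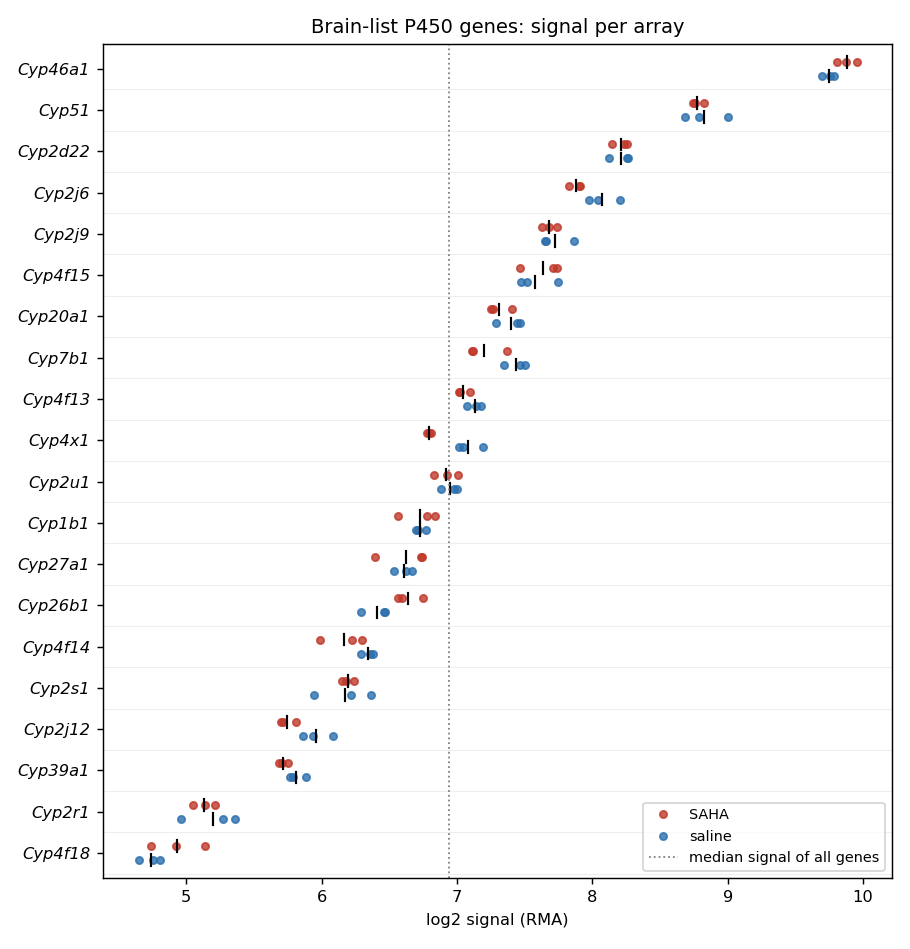
Log2 signal in each array for the 20 brain list genes, ordered by mean signal, with SAHA (red) above saline (blue); black ticks are means of 3 arrays and the dotted line is the median signal of all genes. The groups do not overlap for Cyp46a1 and Cyp26b1, higher in SAHA, and for Cyp4x1, Cyp2j6, Cyp2j12 and Cyp39a1, lower in SAHA.

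The enzymes that clear retinoic acid gave 1 gene with separate groups. Cyp26b1, expressed in brain neurons and meninges, was at 6.57, 6.60 and 6.75 in SAHA, against 6.29, 6.47 and 6.46 in saline. All SAHA values were higher, with a difference of 0.23 (SE 0.078, 95% interval 0.049 to 0.41, adjusted p = 0.212 in limma). Without both arrays that stood apart it was 0.12. In the same signal decile 24.5% of genes were higher without overlap and the median difference was 0.098. Cyp26c1, a relative best known from development, differed by 0.0060 (SE 0.078), and Cyp26a1, named after its values were seen, by -0.13 (SE 0.097), both with overlap. Of 12 vascular and meningeal markers, 7 were higher and 5 lower in SAHA. Col1a1, Col1a2, Igf2 and Pdgfrb were higher without overlap, with differences between 0.15 and 0.22. Of the brighter 9969 genes, which hold 10 of the 12, 7.13% were higher without overlap. This share was 14.7% in the signal decile of Col1a1, Col1a2 and Pdgfrb, and 9.93% in that of Igf2. The fibroblast markers Slc6a13, Lum and Dcn differed by -0.14, -0.053 and -0.0087 with overlap. The mean over the 12 lay between 7.34 and 7.37 in SAHA, against 7.28 to 7.30 in saline. Of 7 choroid plexus markers 6 were higher and 1 lower, and 1, Aqp1, separated the groups, higher in SAHA by 0.42, where 20.0% of the dimmer genes were higher without overlap. Ttr, the most abundant transcript of that tissue, differed by -0.29 (SE 0.34) with overlap. The part of these cells in the Cyp26b1 difference was not tested. In tissue RNA, fewer cells of a type and less RNA per cell cannot be told apart. Cyp1b1, a form of vessel walls that metabolises estrogens and retinoids, averaged 6.73 ± 0.14 in SAHA and 6.72 ± 0.040 in saline (SD, n = 3 each).

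Among vitamin D and steroid hormone enzymes, 6 of 7 were higher and 1 lower on the deposited values, and 1 separated the groups. After cyclic loess normalization 3 of 7 were higher. All 7 lie below the median signal, where 72.3% of genes were higher on the deposited values, 20.0% without overlap. Cyp27b1, the vitamin D 1-alpha-hydroxylase, was at 5.91, 5.88 and 5.96 in SAHA, against 5.81, 5.71 and 5.68 in saline. All SAHA values were higher, with a difference of 0.18 (SE 0.062, adjusted p = 0.217 in limma), which was 0.11 with quantile scaling and 0.085 with cyclic loess, both with overlap. In the signal decile of Cyp27b1, 22.3% of genes were higher without overlap. Cyp2r1, the vitamin D 25-hydroxylase, differed by -0.063 (SE 0.11). Cyp19a1 and Cyp24a1 were not analysed here.

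Of the forms known for drugs and other foreign compounds, Cyp2d40 had the greatest difference of all 87 members. It was at 7.50, 7.51 and 7.74 in SAHA, against 7.13, 6.95 and 7.02 in saline. Every SAHA value was higher than every saline value, with a mean of 7.58 ± 0.14 in SAHA and 7.03 ± 0.089 in saline (SD, n = 3 each). The difference was 0.55 (SE 0.085, 95% interval 0.35 to 0.75), a level 1.46-fold higher in SAHA. Its unadjusted p of 0.000221 ranked 27 of all genes and its adjusted p was 0.116 in limma, which did not pass. It passed with a variance trend, at an adjusted p of 0.0337, and in a test restricted to the brighter 9969 genes, at 0.0402. Its difference lay between 0.47 and 0.60 over all 14 alternatives, with no overlap in any, and was 0.52 without both arrays that stood apart. Its size ranked 5 among those 9969. In its signal decile 14.7% of genes were higher without overlap, and the median difference was 0.019.

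Cyp2d40 lies in a cluster on chromosome 15 of closely related genes and pseudogenes, of which 10 were measured. They share sequence, and cross-hybridisation between their probe sets was not tested. Cyp2d22, the form with the brightest probe set and a known brain relative of human CYP2D6, differed by -0.0040 (SE 0.067), with values of 8.25, 8.23 and 8.14 in SAHA, against 8.26, 8.12 and 8.26 in saline. Cyp2d26, the measured gene next to Cyp2d40 on one side, differed by 0.0037 (SE 0.064, named after its values were seen). Cyp2d37-ps, a transcribed pseudogene and the nearest measured member on the other side, differed by 0.20 (SE 0.10) with overlapping groups, and by 0.085 without saline replicate 1. Cyp2d9 was at 5.20, 5.01 and 4.96 in SAHA, against 4.62, 4.96 and 4.87 in saline, a difference of 0.24 (SE 0.10), and the lowest SAHA value exceeded the highest saline value by less than the rounding. Cyp2d9 was at 0.14 without saline replicate 1, and its groups overlapped under the other 3 scalings, with 0.16 after cyclic loess. In the signal decile of Cyp2d9, 20.8% of genes were higher without overlap. Over the 10, 8 were higher and 2 lower, with a median of 0.18 and a range from -0.045 to 0.55, and 7 or 8 were higher under each other scaling. 8 of the 10 lie below the median signal, where 72.3% of all genes were higher on the deposited values.

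Further members outside the brain list with separate groups were dim. Cyp2b10, a liver form induced through the receptor Nr1i3, was at 5.83, 5.70 and 5.89 in SAHA, against 5.52, 5.34 and 5.30 in saline, a difference of 0.42 (SE 0.082, unadjusted p = 0.000972, adjusted p = 0.120 in limma). All SAHA values were higher, and the difference lay between 0.32 and 0.49 over its 13 alternatives. In its signal decile, which also holds Cyp1a1 and Cyp2c66, 20.8% of genes were higher without overlap. Cyp1a1, induced through the aryl hydrocarbon receptor, was at 5.21, 5.13 and 5.24 in SAHA, against 4.91, 5.05 and 4.54 in saline, with a difference of 0.36 (SE 0.12) and the lowest value in saline replicate 3, without which it was 0.21. Cyp2s1, a brain list form of epithelia, averaged 6.19 ± 0.045 in SAHA and 6.17 ± 0.21 in saline (SD, n = 3 each). Cyp1a2, induced like Cyp1a1, differed by 0.086 (SE 0.070) with overlap. Cyp2c66 differed by 0.41 (SE 0.12) and Cyp2f2, a form of lung airways, by 0.22 (SE 0.079), both without overlap on the deposited values. Cyp2f2 overlapped under the other 3 scalings and was 0.13 after cyclic loess, and Cyp2c66 overlapped after cyclic loess, at 0.31. In the signal decile of Cyp2f2, 22.3% of genes were higher without overlap. Cyp2b23 was higher without overlap at 0.11 (SE 0.056), near the median of 0.098 of its signal decile, and at 0.068, 0.055 and 0.039 after median centring, quantile scaling and cyclic loess.

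Members lower in SAHA without overlap outside the brain list were Cyp2t4, Cyp2c68 and Cyp3a16. In the signal decile of Cyp2t4, 2.51% of genes were lower without overlap, and in that of Cyp2c68 and Cyp3a16, 3.41%. Cyp2t4 was at 5.27, 5.13 and 5.38 in SAHA, against 5.48, 5.63 and 5.65 in saline, a difference of -0.32 (SE 0.083, adjusted p = 0.148 in limma). Cyp2c68 was at 2.70, 2.86 and 2.86 in SAHA, against 3.03, 3.24 and 3.31 in saline, a difference of -0.39 (SE 0.089, adjusted p = 0.129 in limma). Cyp3a16 differed by -0.38 (SE 0.15), and by -0.22 without saline replicate 2, and its groups overlapped with quantile and cyclic loess scaling. Cyp3a16 and Cyp2c68 lie among the dimmest 1.1% of all genes, and Cyp2c68 has near-identical relatives, with which it also shares a probe set of 4 symbols that was not used. Of the 13 genes of subfamily 2c, 9 were higher and 4 lower, with a range from -0.39 to 0.41, and 7 or 8 were higher under the other scalings. In subfamily 3a, 1 of 6 was higher and 5 lower, with a median of -0.12, and in 4a 2 of 5 were higher. All genes of subfamilies 2c, 3a and 4a lie below the median signal, where 72.3% of all genes were higher on the deposited values. Across these dim subfamilies 0 genes passed the adjusted test, and 3 of 24 (12.5%) lay at an unadjusted p under 0.05. Of the dimmer genes 22.4% did. In the lowest signal decile, which holds most of the 24, the share was 16.8%.

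**Figure D4:**
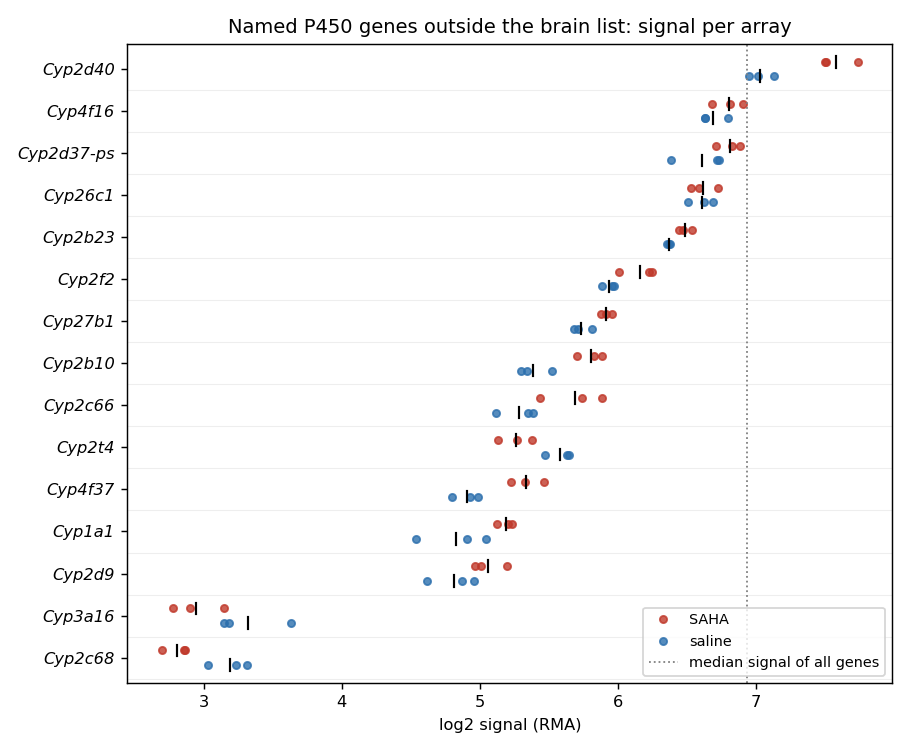
Log2 signal in each array for the named P450 genes outside the brain list, ordered by mean signal, with SAHA (red) above saline (blue); black ticks are means of 3 arrays and the dotted line is the median signal of all genes. Cyp2d40 is the only one of them to the right of the dotted line, with SAHA values from 7.50 to 7.74 and saline values from 6.95 to 7.13.

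The genes that serve the P450 enzymes were read from lists of their own. Of 7 measured redox partners, 0 passed the adjusted test, and 2 lay at an unadjusted p under 0.05, both lower in SAHA. Cyb5a, the cytochrome b5 of the endoplasmic reticulum, averaged 8.71 ± 0.13 in SAHA and 8.94 ± 0.053 in saline (SD, n = 3 each), a difference of -0.23 (SE 0.077) without overlap. Cyb5b, its outer mitochondrial membrane relative, differed by -0.18 (SE 0.059), also without overlap, and Pgrmc1, a heme-binding partner, by -0.12 (SE 0.074) with overlap. Of the brighter 9969 genes, which hold 6 of the 7, 17.4% were lower without overlap. At an unadjusted p under 0.05 in limma lay 12.4% of these brighter genes, 8.28% lower. Por, the reductase of the endoplasmic reticulum, was not analysed here. Of 11 genes of heme synthesis and breakdown, 10 lie among these brighter genes, and 0 of the 11 lay at an unadjusted p under 0.05. Alas1, which starts heme synthesis, was at 7.84, 7.86 and 8.02 in SAHA, against 8.05, 8.06 and 8.04 in saline, a difference of -0.14 (SE 0.066) without overlap. Hmox2, a heme oxygenase of brain, differed by -0.12 (SE 0.065) and Alad by 0.078 (SE 0.073).

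Of 18 measured receptors and regulators of P450 genes, 15 were higher and 3 lower (14 or 15 higher under the other scalings), 0 passed the adjusted test and 3 lay at an unadjusted p under 0.05, all higher in SAHA. Nr0b2, a corepressor that lowers bile acid synthesis in liver, was at 5.86, 5.79 and 5.69 in SAHA, against 5.51, 5.45 and 5.41 in saline, a difference of 0.33 (SE 0.068, adjusted p = 0.120 in limma). Hnf4a, a liver transcription factor, differed by 0.40 (SE 0.11) and Rarg, a retinoic acid receptor, by 0.17 (SE 0.058), both without overlap. 13 of the 18 lie below the median signal, where 72.3% of genes were higher on the deposited values, 20.0% without overlap. At an unadjusted p under 0.05 in limma lay 22.4% of those genes, 19.6% higher. Nr1i3 differed by 0.11 (SE 0.066) and Ahr by 0.079 (SE 0.079), named after their values were seen. Of 19 other enzymes of drug metabolism, 0 passed the adjusted test and 2 (10.5%) lay at an unadjusted p under 0.05, where 17.4% of all genes and 12.4% of the brighter genes, which hold 12 of the 19, lay. Both were lower: the glutathione transferases Gstp1 at -0.19 (SE 0.060) and Gsta4 at -0.18 (SE 0.072). Fmo5, a flavin monooxygenase, differed by 0.16 (SE 0.082).

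With the deposited values, median centring, quantile scaling and cyclic loess scaling in turn, the median of the members outside the brain list was 0.088, 0.042, 0.040 and 0.010, and that of the brain list -0.046, -0.092, -0.057 and -0.071. Over the same 4 scalings Cyp2d40 was between 0.50 and 0.55 and Cyp4x1 between -0.34 and -0.29.

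**Figure D5:**
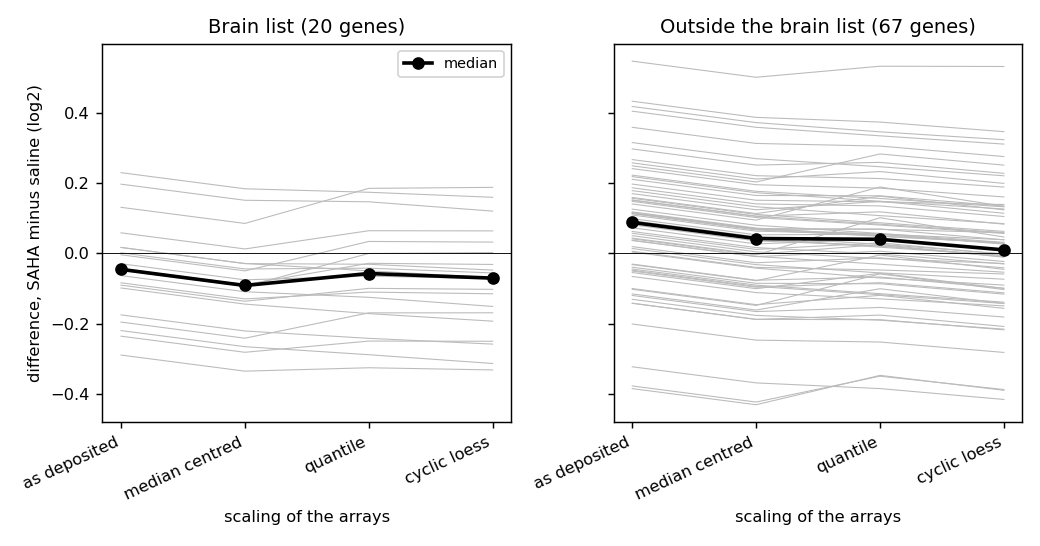
Difference between SAHA and saline (log2) of each P450 gene (grey lines) on the deposited values and after 3 other scalings of the arrays, for the 20 brain list genes and the 67 others; black points are medians. The median outside the brain list is 0.088 on the deposited values and 0.010 after cyclic loess, while that of the brain list stays below 0.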

How the data were processed

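The deposited values are log2 signals, 1 per probe set and array, made by the authors with Affymetrix Expression Console and RMA, per the submitters' processing notes, with no versions given in the sources used here. RMA subtracts background, equalises the arrays by quantiles and combines the probes of a set. Of 35556 probe sets, 21789 have 1 symbol in the platform annotation, 1621 have more and 12146 have no symbol. Each gene was read from its single-symbol probe set of highest mean over 6 arrays (19938 genes). 7 probe sets with several symbols that hold a P450 symbol were left out, and 0 columns of values were unused. The test of SAHA against saline was limma's moderated test (version 3.58.1, R 4.3.3; lmFit, then eBayes), two-sided, with no blocking term and no filter, with Benjamini-Hochberg adjustment over all genes and a threshold of 0.05. The fit was tested on simulated data. Differences are SAHA minus saline on the log2 scale, and SE and 95% intervals are those of the moderated fit. The number of arrays limits precision: the median SE was 0.097 for members and 0.077 for all genes.

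The members, lists and tests were chosen with earlier results of these data known. Named genes are the measured brain list members, the members outside it with separate groups and an unadjusted p under 0.05, the 5 brightest outside it, and the 3 of smallest p per pathway list. Genes named otherwise were chosen after their values were seen. Alternatives were other scalings, a signal filter, the mean of probe sets, a variance trend, the replicate number as a block, and arrays left out.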

Additional observations from a re-analysis of the deposited data

How the results depend on the processing

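With 3 arrays a group, 0 genes passed the adjusted test on the deposited values in limma, while 27 did in a test restricted to the brighter 9969 genes and 28 with a variance trend. Of the members, 1 (Cyp2d40) passed under each of these 2 settings. With the filter 10 members were tested, 4 at an unadjusted p under 0.05 and 3 without overlap. Of the 9969 genes tested there, 19.1% lay at an unadjusted p under 0.05 and 24.5% did not overlap. The median outside the brain list was 0.548, from the 1 member left. The median of the brain list was -0.092 after median centring, and that of the other members 0.042 after median centring, 0.040 with quantile scaling and 0.010 with cyclic loess; the cause was not tested.

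Small differences turned sign. Median centring gave -0.044 for Cyp1b1, -0.040 for Cyp26c1, -0.029 for Cyp27a1 and -0.029 for Cyp2s1. Quantile normalization gave -0.042 for Cyp1b1, -0.047 for Cyp26c1, -0.031 for Cyp27a1, -0.050 for Cyp2s1 and 0.034 for Cyp2d22. Cyclic loess gave -0.056 for Cyp1b1, -0.059 for Cyp26c1, -0.048 for Cyp27a1, -0.069 for Cyp2s1, 0.032 for Cyp2d22 and 0.0023 for Cyp51. Without saline replicate 1 and SAHA replicate 3 the values were -0.031 for Cyp1b1, -0.032 for Cyp27a1, -0.079 for Cyp2s1 and 0.054 for Cyp2d22. They were 0.054 for Cyp2j9, 0.060 for Cyp2r1 and 0.056 for Cyp51.

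With 1 array left out in turn, 24 to 34 of 87 members did not overlap, and 12 to 24 lay at an unadjusted p under 0.05. Of all genes 12.2% to 19.4% lay at an unadjusted p under 0.05 in these settings, and the share without overlap was not counted. The medians lay between -0.073 and -0.028 for the brain list and between 0.055 and 0.12 for the others. Differences ranged from -0.053 to 0.081 for Cyp1b1, -0.042 to 0.13 for Cyp27a1, -0.051 to 0.049 for Cyp26c1, -0.098 to 0.11 for Cyp2s1, -0.051 to 0.029 for Cyp2d22, -0.074 to 0.016 for Cyp2u1, -0.080 to 0.028 for Cyp2j9, -0.18 to 0.018 for Cyp2r1 and -0.12 to 0.041 for Cyp51. The numbers of the replicates did not pair the samples: deviations of same-numbered samples correlated at -0.10, -0.079 and 0.015. With the replicate block 0 genes passed and 16 members lay at an unadjusted p under 0.05, where 15.5% of all genes lay.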

Other observations

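7 probe sets pair with several symbols, P450 genes among them, and belong to no comparison above. Their mean signals lay between 3.51 and 6.27. The probe set of Cyp2a5 and Cyp2a4 was at 5.20, 5.26 and 5.06 in SAHA, against 5.05, 4.95 and 4.87 in saline, and is the one of the 7 whose groups did not overlap. The probe set of Cyp4v3 and Klkb1 was at 6.13, 6.23 and 6.30 in SAHA, against 6.40, 6.32 and 6.21 in saline, with overlap. No test was made on these probe sets.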
